A study of Homo sapiens with 8 samples.

Results

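Enzymes that build and cap O-linked sugar chains were followed in TRAIL-resistant Jurkat subclones and in their parental line. The set holds 35 listed genes, found by gene symbol, which have 41 of the 22184 probes on the array. Jurkat is an established human T cell leukaemia line. TRAIL is a death ligand of the tumour necrosis factor family. Subclones TR1, TR2 and TR3 were raised from Jurkat cells under 1000 ng/mL TRAIL during 12 weeks, and WT is the untreated, TRAIL-sensitive parental line. Each of the 4 lines has 2 arrays, from samples the labels call biological duplicates, in the same medium with serum and antibiotics. Each subclone is a single line and no unselected subclone was profiled, so resistance, subcloning and time in culture cannot be told apart. In bulk RNA, fewer cells that express a gene and less RNA per cell cannot be told apart either.

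O-glycosylation of the mucin type starts in the Golgi, where GALNT enzymes attach N-acetylgalactosamine to serine or threonine. The bare sugar is the Tn antigen. C1GALT1 adds galactose to make the core 1 disaccharide, and it folds only with the help of its chaperone C1GALT1C1, also called Cosmc. GCNT1 branches core 1 into core 2, B3GNT and B4GALT enzymes lengthen the branches, and sialyltransferases and fucosyltransferases cap them. In carcinoma lines GALNT14 and GALNT3 have been tied to sensitivity to TRAIL through O-glycosylation of its death receptors. Jurkat cells are known for a loss-of-function mutation of C1GALT1C1 and carry Tn antigen, which an RNA level cannot show.

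The upstream sequence of the core 1 pair is shown because C1GALT1 gave the smallest adjusted p of the set between subclones, while its chaperone gene gave no call in any comparison. Each line below holds the 250 bases before the annotated start in RefSeq's GRCh38.p14 table, 5′ to 3′ on the gene's own strand, chr7:7182294-7182543 on the plus strand for C1GALT1 and chrX:120630055-120630304 on the minus strand for C1GALT1C1. Capitals mark the GC box GGGCGG and its reverse complement CCGCCC.
C1GALT1: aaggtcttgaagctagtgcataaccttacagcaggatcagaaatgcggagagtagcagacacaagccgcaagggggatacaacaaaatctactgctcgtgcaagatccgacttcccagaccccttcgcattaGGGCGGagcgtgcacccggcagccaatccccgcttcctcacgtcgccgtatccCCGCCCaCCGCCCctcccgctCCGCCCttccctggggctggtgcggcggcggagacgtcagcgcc
C1GALT1C1: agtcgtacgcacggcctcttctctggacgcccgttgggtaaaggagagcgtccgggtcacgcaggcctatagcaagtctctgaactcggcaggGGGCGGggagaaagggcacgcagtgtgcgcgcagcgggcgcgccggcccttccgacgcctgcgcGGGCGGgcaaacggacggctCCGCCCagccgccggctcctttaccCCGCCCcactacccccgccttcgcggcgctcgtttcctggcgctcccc
Both windows hold 4 GC boxes. The first begins 118 bases before the start in C1GALT1 and 157 bases before it in C1GALT1C1. Of 35114 windows of the same length, 42.6% hold at least 1 such box and 7.6% hold 4 or more. The C1GALT1 window has 62.4% G and C, and the C1GALT1C1 window 71.6%. The E box CACGTG, which reads the same on both strands and occurs in 6.3% of windows, is in neither. These matches describe the letters, not sites in use.

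Of the 35 enzymes, 21 were detected on all 8 arrays and 9 on none. A probe counted as detected on an array at a detection p-value under 0.05. A probe entered the tests if some line had it detected on both its arrays, which left 24 probes of 23 members. Among the initiating enzymes, GALNT1, GALNT2, GALNT4, GALNT6, GALNT11, GALNT12 and GALNT13 were detected on all arrays, and GALNT5, GALNT7 and GALNT8 on none. GALNT14 was detected on 1 array, of TR2, GALNT3 on 1 array of TR3 and 1 of WT, and GALNT10 on 1 array of each line, so none of these was tested. The intensity of the GALNT14 probe was between 52.8 and 71.9, and that of the GALNT3 probe between 58.7 and 71.3, both on the linear scale before normalization.

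Core 2 branching showed 1 detected enzyme, GCNT1. All 4 probes of GCNT2 and the probe of GCNT3, which branch other chains and mucin cores, were at background on the 8 arrays. Of the enzymes that sialylate the first sugar, ST6GALNAC4 and ST6GALNAC6 were detected throughout, while ST6GALNAC1, which makes sialyl-Tn, ST6GALNAC2 and ST6GALNAC3 were not detected. FUT8, which adds the core fucose of N-glycans, was not detected, at intensities of 44.4 to 57.1. C1GALT1C1 and ST6GAL1 each had 1 detected probe and 1 probe at background on all arrays. A probe at background does not show that the gene is silent.

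**Figure D1:**
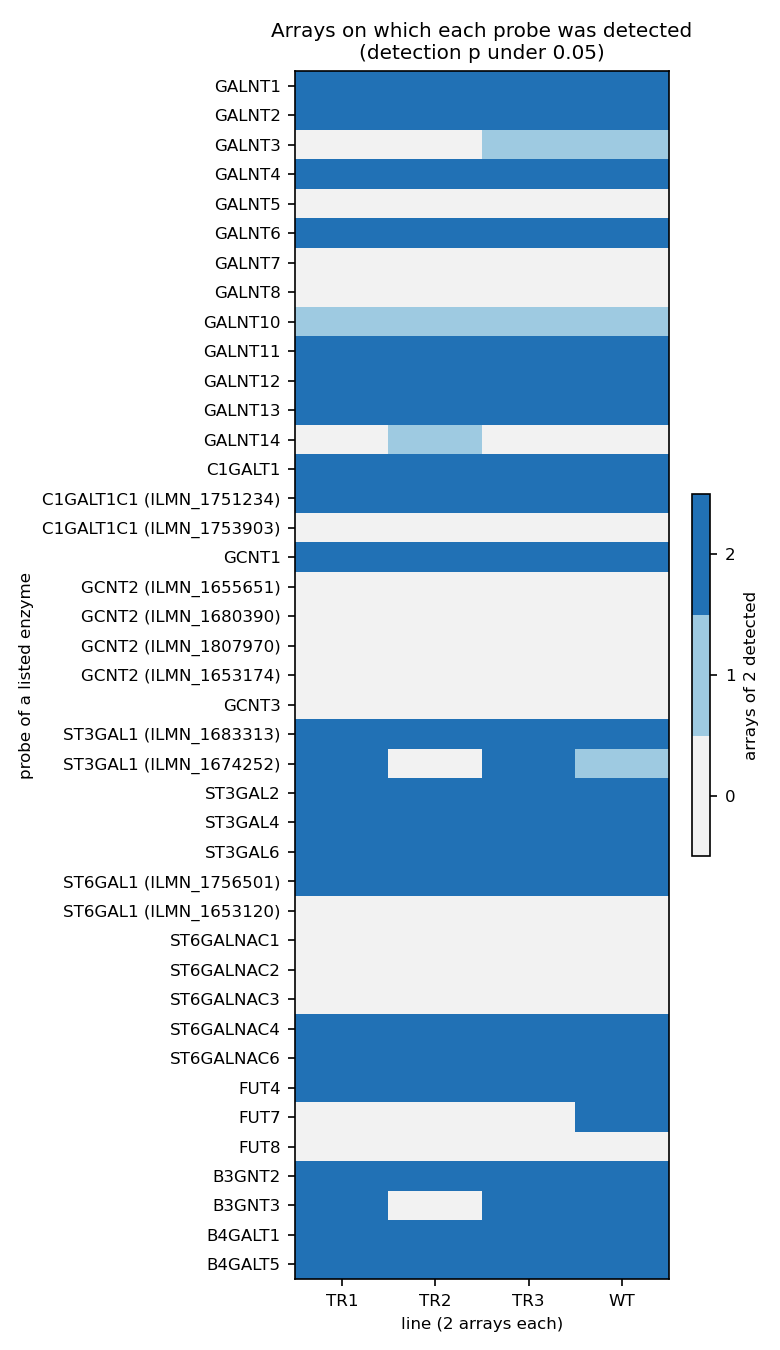
Number of arrays, of 2 per line, on which each of the 41 probes (rows) was detected at p under 0.05, by line (columns). Dark rows are the 21 enzymes seen on all 8 arrays, pale rows those at background, and FUT7 is dark in WT alone.

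No member was called in any subclone against WT. In each of TR1, TR2 and TR3 the count was 0 of 24 probes, with limma's moderated test and a Benjamini-Hochberg adjusted p under 0.05 over all 13130 probes tested. Over all those probes 2.25% were called in TR1, 0.632% in TR2 and 0.297% in TR3, so counts of 0 lie near the background. Split by direction, 0.594% of all probes were higher and 1.65% lower in TR1, 0.388% and 0.244% in TR2, and 0.0762% and 0.221% in TR3. At an unadjusted p under 0.05 the members numbered 7 in TR1, 4 in TR2 and 3 in TR3, against 2123, 1538 and 1320 of all probes. FUT7, which entered the tests through WT alone, is among them in each subclone. The median log2 difference of the tested members was -0.03 (TR1), -0.05 (TR2) and -0.06 (TR3), against 0.02, 0.001 and 0.005 over all probes. In the mean of the 3 subclones against WT the count was also 0, with 0.396% of all probes called (0.114% higher, 0.282% lower). At an unadjusted p under 0.05 the mean had 5 members, FUT7 again among them, against 1484 of all 13130 probes. The authors' processed values carry replicate numbers that pair the samples. With that number as a block, 4 members were called in TR1 (8.77% of all probes), 0 in TR2 (3.88%), 0 in TR3 (2.25%) and 1 in the mean (3% of all probes). The 4 are C1GALT1, higher, and GCNT1, GALNT12 and ST3GAL6, lower.

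**Figure D2:**
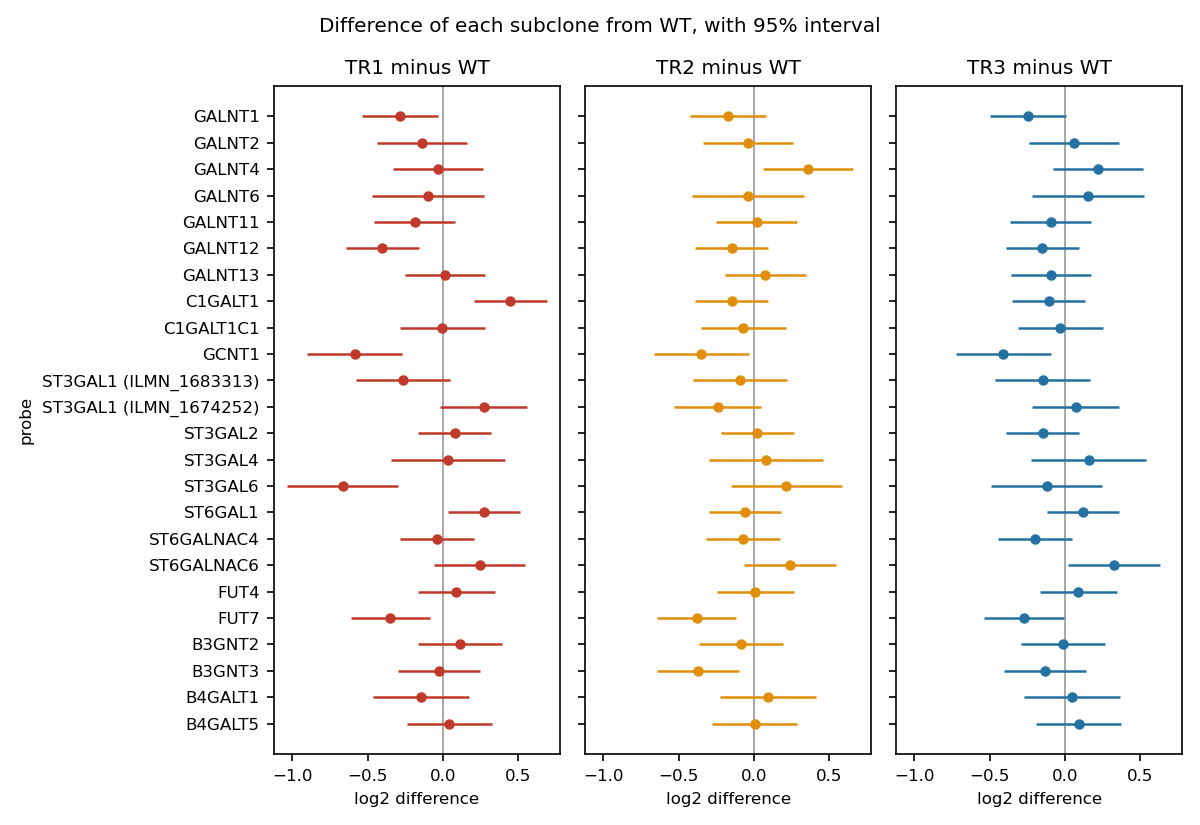
Log2 difference of TR1, TR2 and TR3 from WT (x axis) for the 24 tested probes (rows), as points with 95% intervals from the model. Intervals of FUT7, and in TR2 of B3GNT3 and the dim ST3GAL1 probe, rest on levels at background. In TR1 the lowest value is ST3GAL6 at -0.66 and the highest C1GALT1 at 0.45, and no difference was called.

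For nearly every probe detected in both lines compared, the 95% interval of the difference in normalized intensity lay within 2-fold. It stayed within 2-fold of WT for 22 of 23 such probes in TR1, 21 of 21 in TR2 and 23 of 23 in TR3, and that of ST3GAL6 in TR1 reached -1.03. TR1 had 19 intervals within 1.5-fold, TR2 had 19 and TR3 had 21. FUT7 in every subclone, and B3GNT3 and the dim ST3GAL1 probe in TR2, were left out, since a level at background sets no upper limit on a fold. GALNT13, and B3GNT3 and the dim ST3GAL1 probe in TR1 and TR3, were kept though near background. The size of a difference depends on the background correction there, so such intervals do not bound the fold in RNA. The standard errors (SE) of the members' differences ran from 0.11 to 0.17.

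Among the initiating enzymes, GALNT12 stood lowest in TR1. GALNT12 transfers the first sugar in the digestive tract, and its loss is known from colorectal cancer. Its normalized log2 intensity was 8.42 on both TR1 arrays, 8.66 and 8.68 in TR2, 8.76 and 8.58 in TR3, and 8.76 and 8.88 in WT. Both TR1 arrays were below all others, and the upper TR3 array came within rounding of the lower WT array. The TR1 difference was -0.40 ± 0.11 (SE, n = 2 arrays per line, adjusted p = 0.101, limma), or 0.0121 with the replicate block on the authors' values, where it was -0.36. The value in TR2 was -0.15 ± 0.11 and in TR3 -0.15 ± 0.11, each with no call.

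GALNT1, a broadly expressed initiating enzyme, had values of 7.56 and 7.76 in TR1, 7.84 and 7.71 in TR2, 7.65 and 7.74 in TR3, and 7.92 and 7.96 in WT. All 6 subclone arrays were below both WT arrays, by 0.28 in TR1, 0.17 in TR2 and 0.24 in TR3 on average, with adjusted p of 0.259, 0.606 and 0.513. GALNT4, which prefers substrates that already carry sugar, leaned the other way in TR2. Its values were 6.70 and 6.64 in TR1, 6.93 and 7.20 in TR2, 6.78 and 7.06 in TR3, and 6.64 and 6.77 in WT. The TR2 difference from WT was 0.36 ± 0.13 (adjusted p = 0.333), and GALNT4 shares its locus with a readthrough transcript, from which the probe may not tell it apart. GALNT2, GALNT6, GALNT11 and GALNT13 had differences between -0.19 and 0.15 in every subclone, none called.

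**Figure D3:**
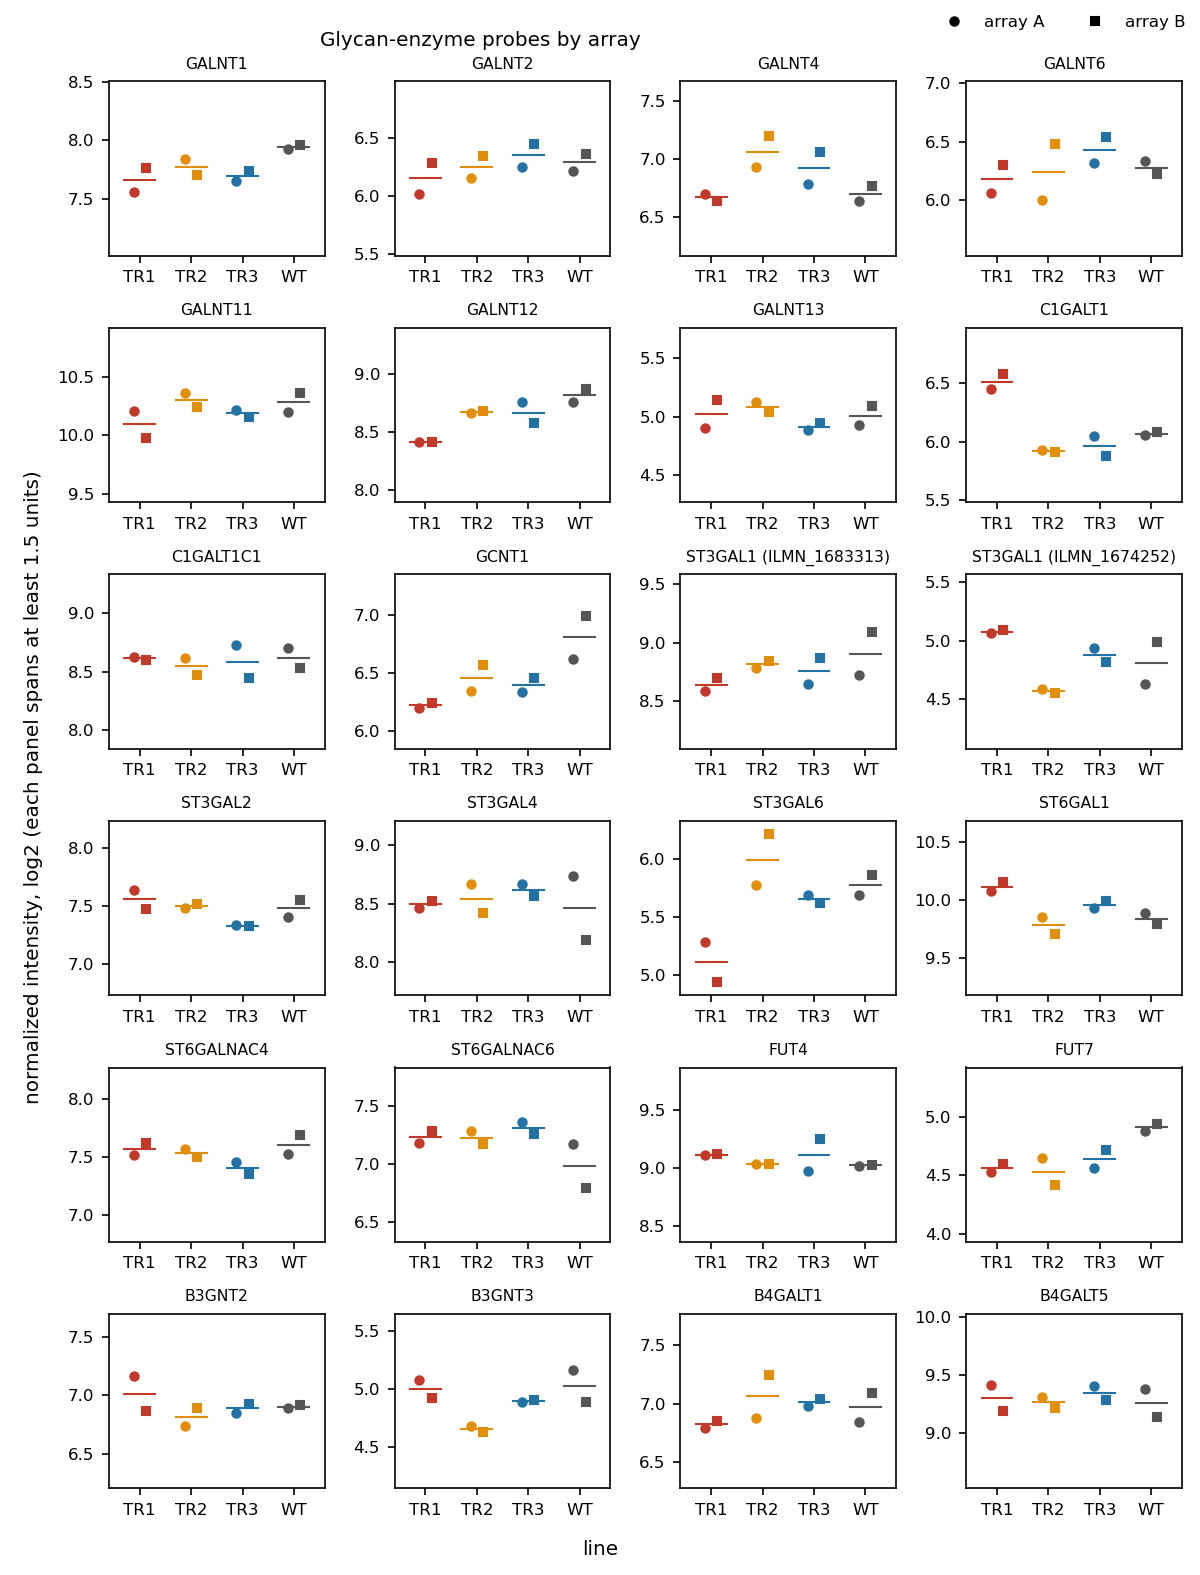
Normalized log2 intensity (y axis) of the 24 tested probes on each array of TR1, TR2, TR3 and WT (x axis), with circles for array A, squares for array B and a bar at the mean of a line. TR1 stands apart upward for C1GALT1 and downward for ST3GAL6, while C1GALT1C1 overlaps in all lines.

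C1GALT1 set TR1 apart from the other subclones. C1GALT1 is the T-synthase that makes core 1. Its normalized log2 intensity was 6.45 and 6.58 in TR1, 5.93 and 5.91 in TR2, 6.04 and 5.87 in TR3, and 6.05 and 6.08 in WT. Both TR1 arrays were above the 6 other arrays. The difference of TR2 from TR1 was -0.60 ± 0.11 (adjusted p = 0.0123, limma), a ratio of 0.661, and that of TR3 from TR1 was -0.56 ± 0.11 (adjusted p = 0.0371), a ratio of 0.680. TR3 and TR2 differed by 0.04 ± 0.11 (adjusted p = 0.943). The moderated F test among the 3 subclones gave an adjusted p of 0.0191. Against WT the TR1 value was 0.45 ± 0.11 (adjusted p = 0.069), or 0.0333 with the replicate block.

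The size of the C1GALT1 difference depended on the background correction. Without it, TR2 minus TR1 was -0.39 (adjusted p = 0.0187) and TR3 minus TR1 -0.36 (0.0518). The call of TR2 against TR1 was lost without TR1 array B (adjusted p = 0.0948), TR2 array A (0.0617) or TR2 array B (0.088). That of TR3 against TR1 was lost without any 1 of the 6 subclone arrays (0.0608 to 0.303) and when dim probes were kept (0.053). The F test lost its call without TR1 array A (adjusted p = 0.0863), TR1 array B (0.17), TR2 array A (0.0548), TR2 array B (0.0674) or TR3 array B (0.0503).

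C1GALT1C1, the chaperone of C1GALT1, lay at 8.63 and 8.60 in TR1, 8.62 and 8.47 in TR2, 8.73 and 8.45 in TR3, and 8.70 and 8.53 in WT. The lines overlapped. Its differences from WT were -0.0027 in TR1, -0.07 in TR2 and -0.03 in TR3, each ± 0.13, and the 95% intervals ran from -0.29 to 0.28, from -0.35 to 0.21 and from -0.31 to 0.25. The F test among subclones gave an adjusted p of 0.947.

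GCNT1 was below WT on every subclone array. GCNT1 is the leukocyte core 2 enzyme, whose branch carries selectin ligands. Its values were 6.20 and 6.25 in TR1, 6.35 and 6.57 in TR2, 6.34 and 6.46 in TR3, and 6.62 and 7.0 in WT. The duplicate WT arrays lay further apart than those of any subclone. The differences from WT were -0.59 in TR1, -0.35 in TR2 and -0.41 in TR3, each ± 0.14, with adjusted p of 0.0678, 0.374 and 0.39, and the mean of the subclones was -0.45 ± 0.11 (0.206).

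With the replicate block, GCNT1 was called in TR1 (adjusted p = 0.00479) and in the mean of the subclones (0.0176), and not in TR2 (0.128) or TR3 (0.0894). On the authors' log2 values, TR1 minus WT was -0.29 in replicate 1 and -0.53 in replicate 2, TR2 minus WT -0.19 and -0.31, and TR3 minus WT -0.19 and -0.39. All 6 paired differences were below 0. Without WT array A the TR1 difference was -0.77 (adjusted p = 0.037), and without WT array B it was -0.40 (0.286). The size therefore moves with the WT arrays.

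GALNT1, GALNT12, GCNT1 and FUT7 were below both WT arrays on all 6 subclone arrays, 4 of 24 probes against 4.91% of all probes. FUT7 passed the detection filter through WT alone, so its place below WT was close to fixed by that filter. The same holds for FUT7 in the counts of each subclone. GALNT12 counts by a gap within rounding, between TR3 and WT. None of the 24 was above WT on all 6, against 4.99%. Taken line by line, 5 probes stood above and 6 below WT on both arrays of TR1, against 23.9% and 21% of all probes. The counts were 2 above and 7 below in TR2 (19.8% and 19.9%), and 3 above and 7 below in TR3 (19.7% and 19.3%). All of these comparisons share the same 2 WT arrays.

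**Figure D4:**
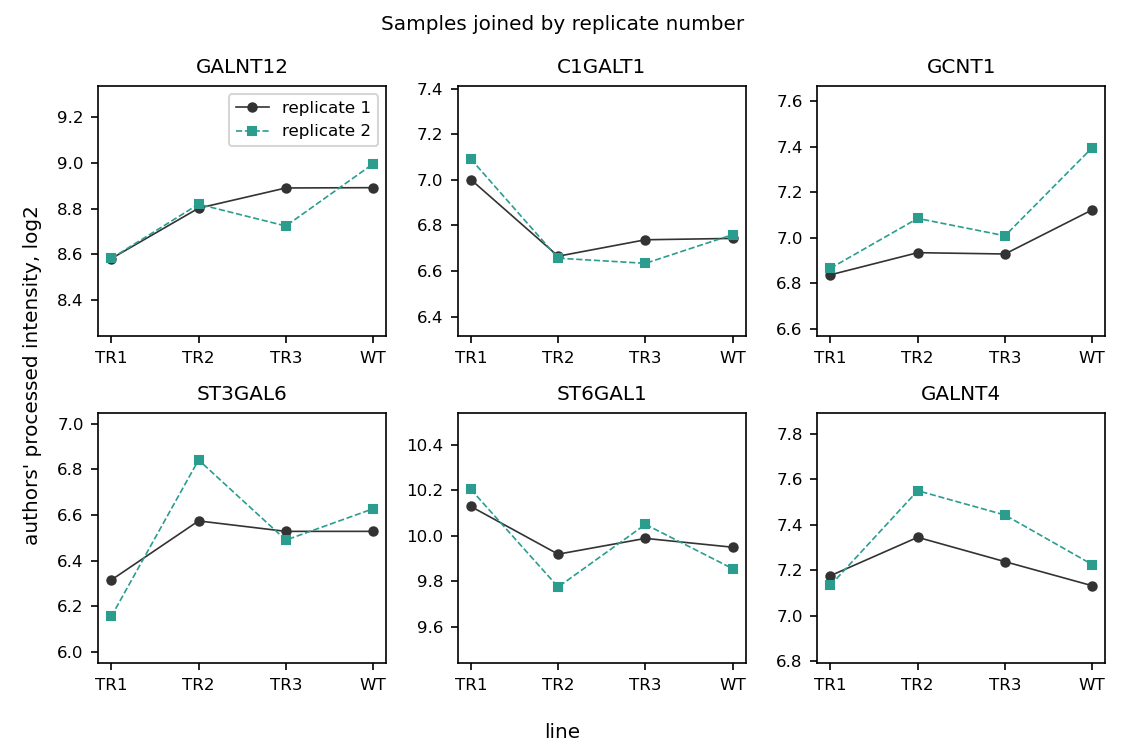
Authors' processed log2 intensity (y axis) of 6 members by line (x axis), with the samples of replicate 1 joined by a solid line and those of replicate 2 by a dashed line. GCNT1 is lowest in TR1 and highest in WT in both replicates, and C1GALT1 is highest in TR1 in both.

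Among the sialyltransferases, ST3GAL6 differed between subclones. ST3GAL6 caps galactose on chains that become selectin ligands. Its values were 5.28 and 4.94 in TR1, 5.77 and 6.21 in TR2, 5.69 and 5.62 in TR3, and 5.69 and 5.86 in WT. Both TR1 arrays were below the other 6. TR2 was above TR1 by 0.88 ± 0.16 (adjusted p = 0.0147), a ratio of 1.84. TR3 minus TR1 was 0.54 ± 0.16 (adjusted p = 0.163) and TR3 minus TR2 was -0.34 ± 0.16 (0.534). The moderated F test gave 0.0385. Against WT the TR1 value was -0.66 ± 0.16 (adjusted p = 0.0763), or 0.031 with the replicate block.

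The ST3GAL6 probe was dim, and background correction set the size of its difference. Without the correction TR2 minus TR1 was 0.47 (adjusted p = 0.0224). The F test lost its call there (0.058), with a normexp offset of 50 (0.0548), without a filter on dim probes (0.116), on the subclone arrays alone (0.0587) and without each array but TR2 array A (0.0587 to 0.201). Without TR2 array A it was 0.0264. The call of TR2 against TR1 was lost without TR1 array B (0.71, adjusted p = 0.107) or TR2 array B (0.66, 0.116), and without a filter on dim probes (0.0529).

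ST6GAL1, which caps N-glycans and is known to sialylate death receptors, lay at 10.08 and 10.15 in TR1, 9.86 and 9.71 in TR2, 9.93 and 9.99 in TR3, and 9.89 and 9.79 in WT. TR1 was above the other lines by a small margin. TR2 minus TR1 was -0.33 ± 0.11 (adjusted p = 0.13), or 0.0203 with the replicate block, and TR1 minus WT was 0.27 ± 0.11 (adjusted p = 0.249, or 0.0653 with the block). The values of ST3GAL2 and ST3GAL4, which cap core 1 and lactosamine ends, were between -0.15 and 0.16 from WT in each subclone. The SE of ST3GAL4 was the largest of the set, at 0.17, with WT arrays at 8.74 and 8.18.

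The pair of ST3GAL1 probes disagreed. ST3GAL1 caps core 1 with sialic acid. The brighter probe stood at -0.27 in TR1, -0.09 in TR2 and -0.15 in TR3 from WT, each ± 0.14. The dim probe stood at 0.27 ± 0.13 in TR1 and 0.07 ± 0.13 in TR3, with 1 of 2 WT arrays detected, and was not detected above background in TR2. No ST3GAL1 difference was called in the main fit. The dim probe in TR2 against TR1 stood at -0.51 ± 0.13 (adjusted p = 0.0557, limma). It was called there under 2 alternatives other than leaving out an array (lowest adjusted p = 0.0233). With TR2 at background, the size of that difference is unmeasured. ST6GALNAC4 had values of -0.04, -0.07 and -0.20 in TR1, TR2 and TR3, each ± 0.11. ST6GALNAC6 had 0.24, 0.24 and 0.32, each ± 0.14, with adjusted p of 0.416, 0.537 and 0.484. Its WT arrays lay at 7.18 and 6.80. Without WT array A these values were 0.43, 0.43 and 0.51, and without WT array B 0.05, 0.05 and 0.13.

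FUT7 was detected in WT and in no subclone. FUT7 adds the fucose that completes sialyl Lewis x on leukocytes. Its values were 4.53 and 4.60 in TR1, 4.65 and 4.41 in TR2, 4.56 and 4.72 in TR3, and 4.88 and 4.94 in WT. Where a line had no detected array, its level has only a bound, set on each array by whichever was greater, the signal of FUT7 itself or the dimmest signal among detected probes. By that bound the means put FUT7 at least 1.05-fold lower in TR1, 1.1-fold lower in TR2 and 1.12-fold lower in TR3. The bound carries no sampling error. Limma's test of the values themselves, not of the bound, gave adjusted p of 0.187, 0.248 and 0.488. FUT7 entered the tests through WT alone, so its place below WT was close to fixed by that filter. The bound and the test are therefore no support for a lower level in the subclones. A probe so near background leaves the size of a change unmeasured. FUT4, the other myeloid and lymphoid fucosyltransferase, lay between 8.98 and 9.25 on all 8 arrays, within 0.09 of WT in each subclone.

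No chain-lengthening enzyme was called. B3GNT2, the main polylactosamine enzyme, stood at 0.11, -0.09 and -0.01 from WT in TR1, TR2 and TR3, each ± 0.12. B4GALT1, a galactosyltransferase of lactosamine, stood at -0.14, 0.09 and 0.04, each ± 0.14, and B4GALT5, which makes lactosylceramide, at 0.04, 0.0063 and 0.09, each ± 0.13. B3GNT3, which extends core 1, was not detected above background in TR2. The same bound on the means put it at least 1.19-fold lower there, without sampling error. Limma's test of the B3GNT3 values in TR2 against WT gave an adjusted p of 0.266. The B3GNT3 value was -0.03 ± 0.12 in TR1 and -0.13 ± 0.12 in TR3.

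Between subclones, 2 members were called by the F test, against 3.71% of all probes. At an unadjusted p under 0.05 the F test gave 6 members, against 2313 of all 13130 probes. In TR2 against TR1, 4.69% of all probes were called, and the members gave 1 higher (2.97% of all probes) and 1 lower (1.72%). In TR3 against TR1, 1.54% were called, and the members gave 0 higher (1.03%) and 1 lower (0.51%). In TR3 against TR2, 0.784% were called (0.152% higher, 0.632% lower), and limma called 0 members. At an unadjusted p under 0.05 that pair gave 1 member, against 1370 of all 13130 probes. With the replicate block the F test called 3 members (12.8% of all probes), adding ST6GAL1. The pairs then gave 4 (11.3%), 1 (7.4%) and 0 (3.84%). The added genes in TR2 against TR1 were ST6GAL1, lower, and GALNT4, higher by 0.29 (adjusted p = 0.035).

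Among genes listed for the supply of activated sugars or the breakdown of sialic acid, NPL and SLC35A2 had a called probe. Of 21 such genes tested, with 27 probes, 2 probes were lower in TR1 (1.65% of all probes) and 1 in the mean of the subclones (0.282%). NPL, which breaks down free sialic acid, had 6.25 and 5.85 in TR1, 6.07 and 6.22 in TR2, 5.99 and 6.25 in TR3, and 6.87 and 6.85 in WT. All 6 subclone arrays of NPL were well below both WT arrays. NPL fell by 0.81 ± 0.15 in TR1 (adjusted p = 0.0246) and by 0.75 ± 0.12 in the mean of the subclones (0.0394), and its values in TR2 (-0.71) and TR3 (-0.73) had adjusted p of 0.0854 and 0.124. The TR1 call was lost without TR1 array B (0.136), WT array A (0.0814) or WT array B (0.124), without a filter on dim probes (0.0747), on the arrays compared alone (0.0603) and with array weights (0.0502). The call in the mean was lost without each array but TR1 array A (0.0562 to 0.337), and its adjusted p was 0.246 with the line as a random block. The NPL call in the mean was lost too without a filter on dim probes (adjusted p = 0.117) and with array weights (0.121). With the replicate block NPL was called in TR1 (9.1e-04), TR2 (0.00551) and TR3 (0.00711).

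SLC35A2 carries UDP-galactose into the Golgi, the donor that C1GALT1 uses. The dimmest of its 3 probes fell by 0.52 ± 0.10 in TR1 (adjusted p = 0.0346), with 5.06 and 5.07 in TR1 and 5.64 and 5.54 in WT. The other SLC35A2 probes stood at 0.05 and -0.08 in TR1 with no call, so the probes disagree. Without background correction the value of the dim probe was -0.26 (adjusted p = 0.12), and on the authors' values it was the same, with an adjusted p of 0.12 without the replicate block and 0.053 with it. The SLC35A2 call was also lost with a normexp offset of 50 (0.1017), on the arrays compared alone (0.1065) and with array weights (0.0571). Without single arrays the value of the dim probe ran from -0.57 to -0.47. Further genes of sugar supply by size of change in the mean were NANS (-0.31), which makes sialic acid, SLC35A1 (-0.25), the CMP-sialic acid transporter, and UGP2 (0.22), which makes UDP-glucose, with adjusted p of 0.344, 0.386 and 0.547.

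Other transferases gave no call. Of 18 tested genes with 19 probes, 0 were called against WT or between subclones. At an unadjusted p under 0.05 there were 4 probes in TR1, 1 in TR2, 2 in TR3 and 0 in the mean. The counts over all 13130 probes were 2123, 1538, 1320 and 1484. The largest values in the mean were GALNT9 (0.23), an initiating enzyme of brain, ST3GAL3 (0.19) and B3GNT8 (0.18). FUT3 and FUT6, fucosyltransferases of Lewis antigens of which FUT6 has also been tied to TRAIL sensitivity, were detected on no array. Glycan-removing enzymes had 7 tested genes and no call against WT without the replicate block. FUCA1, the lysosomal fucosidase, was lower in TR2 than in TR1, at a difference of -0.48 ± 0.11 (adjusted p = 0.0352; 1.72% of all probes were lower there). The FUCA1 call was lost without each subclone array (0.0574 to 0.189). FUCA1 in TR2 against WT was -0.45 (adjusted p = 0.134), or -0.42 with the replicate block, where it was called (0.0081). NEU3 (0.18), NEU1 (0.17) and HEXA (0.10) had no call in the mean.

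Enzymes that start or process other glycan types, 16 tested genes with 20 probes, had no call against WT. MGAT4B, a branching enzyme of N-glycans, was higher in TR2 than in TR1 at both tested probes, by 0.65 ± 0.13 (adjusted p = 0.0177) and 0.51 ± 0.12 (0.0454), where 2.97% of all probes were higher. The call of the first probe was lost without any of the TR1 and TR2 arrays (0.0542 to 0.129). That of the second was lost without each array but TR1 array B (0.0574 to 0.268), when dim probes were kept (0.0708) and on the subclone arrays alone (0.0574). MAN2A1 (0.41), POFUT1 (0.35) and MGAT4A (-0.30) had the largest other values in the mean, with adjusted p of 0.103, 0.203 and 0.396. All 12 genes of the conserved oligomeric Golgi complex and Golgi structure were tested and none was called. GORASP1 (-0.27), GOLGA2 (0.22) and COG5 (-0.18) had the largest values.

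Among proteins that carry O-glycans, CD8A was higher and CD99 lower in TR1 than in WT. Of 18 tested genes with 23 probes, 1 probe was higher (0.594% of all probes) and 1 lower (1.65%) in TR1, and 4 were called by the F test (3.71%). With the replicate block on the authors' values, CD55 (0.51, adjusted p = 8.98e-04) and GLG1 (0.50, 0.00211) were also called in TR1 and MUC1 (0.36, 0.0276) in TR3 against WT. CD8A, a T cell coreceptor, rose by 0.81 ± 0.13 in TR1 (adjusted p = 0.0107), with 5.84 and 5.60 in TR1 against 4.89 and 4.94 in WT. The CD8A value was 0.40 without background correction (adjusted p = 0.0344), and its call was lost without TR1 array A (0.0978), WT array A (0.0535) or WT array B (0.0603). CD99, a heavily O-glycosylated adhesion protein, fell by 0.61 ± 0.11 in TR1 (adjusted p = 0.0266), with 11.41 and 11.59 in TR1 against 12.13 and 12.09 in WT. The CD99 call was lost without each array of TR1, TR3 and WT (0.052 to 0.184) and on the arrays compared alone (0.0762). Both genes differed in TR2 and TR3 from TR1, CD8A by -0.75 and -0.88 and CD99 by 0.71 and 0.68, with adjusted p of 0.00837 and 0.00918 for CD8A and 0.00681 and 0.02 for CD99. Those of TR2 against TR1 were lost without TR1 array A or TR2 array B (0.078 and 0.085 for CD8A, 0.0675 and 0.0752 for CD99). Those of TR3 against TR1 were lost for CD8A without TR1 array A, TR3 array A or TR3 array B (0.0801 to 0.0896), and for CD99 without each array of TR1 and TR3 (0.0606 to 0.18).

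MUC1, the membrane mucin, was higher in TR3 than in TR1 by 0.73 ± 0.11 (adjusted p = 0.00926), with 6.51 and 6.63 in TR3 and 5.77 and 5.91 in TR1. The MUC1 value was 0.47 without background correction (0.0137), and its call was lost without TR1 array A (0.0958), TR3 array A (0.0564) or TR3 array B (0.119). CD55, a complement regulator on an O-glycosylated stalk, was lower in TR3 than in TR1, at a difference of -0.89 ± 0.17 (0.0332). The CD55 call was lost without TR1 array A (0.213), TR3 array A (0.142) or TR3 array B (0.22) and when dim probes were kept (0.103). GLG1, a Golgi glycoprotein, was lower in TR2 than in TR1, at a difference of -0.52 ± 0.13 (0.0474), and its value in TR1 against WT was 0.51 ± 0.13 (0.0783). The GLG1 call was lost without each subclone array (0.068 to 0.253), with cyclic loess (0.0529) and when dim probes were kept (0.0814). GLG1 was also called in TR1 against WT without background correction (0.0364) and on the authors' values without the block (0.0365). CD164 (-0.28), SPN (-0.27), the main O-glycosylated sialoprotein of T cells, and SELPLG (0.22), the ligand of P-selectin, had no call in the mean. Lectins that read glycans had 6 tested genes and no call. LGALS4 stood at 0.30, LGALS1 at -0.28 and LGALS8 at -0.27 in the mean.

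**Figure D5:**
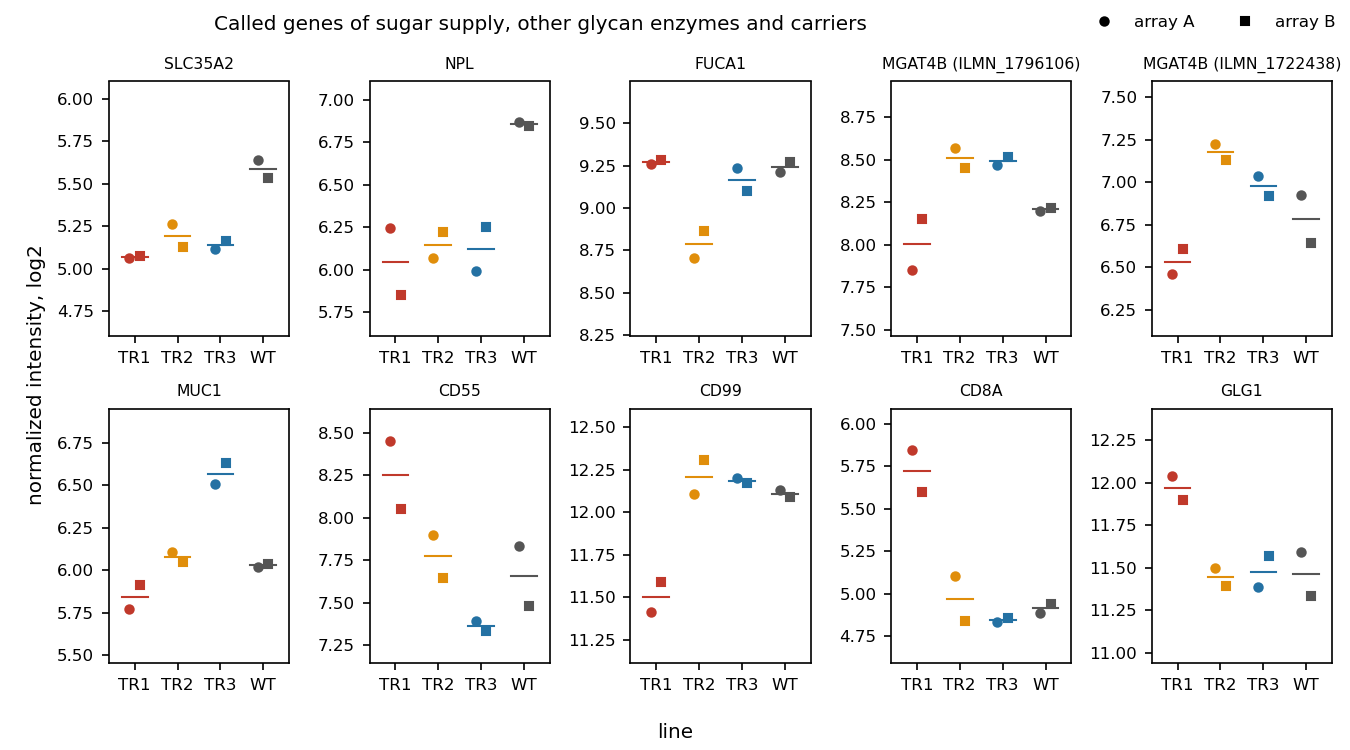
Normalized log2 intensity (y axis) by line (x axis) of the 10 probes of the related glycosylation lists, cell type markers left out, that were called in a comparison, with circles for array A, squares for array B and a bar at the mean of a line. NPL lies below WT in all 3 subclones, and CD8A and CD99 set TR1 apart. CD55 and GLG1 have their highest mean in TR1, with no call against WT there.

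The number of detected probes ran from 12408 to 13437 over the 8 arrays. Of 12 T cell markers, 11 were detected on all 8 arrays, including CD3D, CD3E and LCK, and none was called against WT. Of markers of other cell types, MS4A1 and PAX5 of B cells, CD14, CSF1R and ITGAM of myeloid cells, KRT8 and KRT19 of epithelia and HBB of red cells were detected on no array. CD79A and CD79B of B cells, CD68 of myeloid cells and HBA1 of red cells, from the same lists, were detected on all 8. EPCAM, KRT18 and CDH1 of epithelia, LYZ of myeloid cells and KLRD1 and NCR1 of natural killer cells were detected on some arrays. So was a further red cell gene. The summed linear intensity of the B cell markers was 474.1 to 474.4 in TR1, 556 to 643.7 in TR2, 588 to 652.8 in TR3 and 546 to 600.8 in WT, lowest in TR1. That sum took in 7 probes before normalization, of which 2 were tested. In TR1 against WT 1 of these was higher and 1 lower, both at an unadjusted p under 0.05 by limma and neither called, so the markers did not fall together. The summed intensity of the myeloid markers was 333.6 to 364.2 in TR1, 398.1 to 426.1 in TR2, 400.8 to 402.3 in TR3 and 352.9 to 402.6 in WT. NCAM1, a natural killer marker seen on all arrays, was higher in TR2 than in TR1 by 0.69 (adjusted p = 0.0173). The part of these differences in the results was not tested.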

How the data were processed

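RNA from 8 Jurkat samples was read on Illumina HumanRef-8 BeadChips. Per the file headers, the authors deposited non-normalized intensity, which is linear, and each probe's detection p-value. A second deposited table holds linear intensity after the authors' processing, with column medians of 77.2 or 77.21. How that was done and centred is not given in the sources used here, beyond limma being listed in the submitters' processing notes. Columns of the first table are lettered A and B and those of the second numbered by replicate, and no label links letters to numbers. The values go with A as replicate 1 and B as replicate 2. ST3GAL4 in WT, in log2, was 8.74 (A) and 8.18 (B) as normalized here, against 8.87 (replicate 1) and 8.37 (replicate 2). The authors' values and the fit without background correction both gave an adjusted p of 0.0288 for the C1GALT1 F test. Results with the replicate block therefore differ from the main fit in both processing and model.

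Intensities were background corrected by normexp from the detection p-values with an offset of 16, taken from the deposited scale to log2 and quantile normalized in limma 3.58.1 (R 4.3.3). One mean per line was estimated from the 8 arrays together by lmFit and eBayes (4 residual and 5.66 prior degrees of freedom), and p-values were adjusted over 13130 probes. Fold changes are on the log2 scale. The number of arrays limits the precision. Of 22184 probes, 19715 have 1 gene symbol, 0 several and 2469 none, and 19695 probes were matched by gene identifier to current names in RefSeq's GRCh38.p14 table. The enzymes, the other lists (sugar supply, other transferases, glycan removal, other starters, Golgi, carriers, lectins, cell markers) and the tests were chosen with earlier results of these data known. Every enzyme is named, and of each other list all called genes and up to 3 more by the mean difference. RefSeq promoter windows matched 27 of the 35 enzymes.

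On the authors' values, differences between replicate 2 and replicate 1 correlated across probes in all 6 pairs of lines (r from 0.28 to 0.432, genes not being independent), so the numbers pair the samples. The model was also run on simulated data with independent noise on each array. That noise held no effect shared by a replicate number, so the run cannot speak to the pairing. Alternatives were other corrections, normalizations, filters, weights, the authors' values, the replicate block and leaving out each array.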

Additional observations from a re-analysis of the deposited data

Results flagged for a closer look

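The difference from WT was not the same in the 3 subclones for 2 of the enzymes and for 5 related probes, by the moderated F test among the subclones. The adjusted p was 0.0191 for C1GALT1 and 0.0385 for ST3GAL6. Among the genes outside the set it was 0.0431 for 1 of the MGAT4B probes, 0.00981 for MUC1, 0.0385 for CD55, 0.00987 for CD99 and 0.00674 for CD8A. TR1 was the highest line for C1GALT1, CD55 and CD8A and the lowest for ST3GAL6, MGAT4B, MUC1 and CD99.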

How the results depend on the processing

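No called difference of an enzyme changed sign under any alternative. Against WT the count of called enzymes stayed at 0 in TR2 and TR3 under every alternative. In TR1 it was 4 with the replicate block on the authors' values and 0 to 1 without single arrays, the 1 being GCNT1 without WT array A. In the mean of the subclones it was 1 with the block and 0 under the other alternatives. Among the subclones the count of 2 became 1 without background correction, with an offset of 50, on the authors' values, without a filter on dim probes and on the subclone arrays alone, and 0 to 1 without single arrays. The cause was not tested. Set against the main fit, the replicate block changed calls of C1GALT1, GCNT1, GALNT12 and ST3GAL6 against WT. Between subclones it changed those of ST6GAL1 and GALNT4, and of no other enzyme of the set. Set against the authors' values without it, the block also added C1GALT1 in TR3 against TR1 (adjusted p from 0.0518 to 0.0107). There it added the F test of ST3GAL6 too (0.058 to 0.00678). Among named genes outside the set, the block also called NPL in TR2 and TR3, CD55 in TR1, FUCA1 in TR2 and MUC1 in TR3 against WT. Between subclones it added CD55 and 1 MGAT4B probe (CD55 in TR2 and MGAT4B in TR3, each against TR1), and CD55, FUCA1 and MUC1 in TR3 against TR2. GLG1 in TR1 against WT, and GLG1 and the other MGAT4B probe in TR3 against TR1, were called on the authors' values without the block too. The SLC35A2 call was lost on the authors' values both without the block (adjusted p = 0.12) and with it (0.053). Signal near background and 2 arrays per line limit the precision.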
